A study of Rattus norvegicus with 10 samples.

Results

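Isolated regions were defined as the autosomal regions of a methyl-capture count table that are shorter than 2000 bp and have 5 or fewer other regions of the table with a midpoint within 50 kb of their own. They numbered 11484 of the 574544 regions in the table, or 2.01% of its autosomal regions. The rule used position and length and no count. The question was where they lie and how SE rats differed from control rats in them.

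The table holds the amygdala stimulation model of acquired epilepsy in male Sprague-Dawley rats. Under anesthesia, every rat received a bipolar electrode in the left lateral nucleus of the amygdala and screw electrodes in the skull. Rats of the SE group were later stimulated through the amygdala electrode until status epilepticus (SE), a self-sustaining seizure state, which was stopped with diazepam. Age-matched control rats carried the same electrodes and received no stimulation. Left hippocampal tissue with CA3 and dentate gyrus was taken 3 months after SE, and methylated DNA of each rat was captured and sequenced as 1 library. The labels list 5 control and 5 SE rats of which control rat 2 and SE rat 7 bear the label discarded, for a reason that is not given in the sources used here. Control rats 1, 3, 4 and 5 were therefore compared with SE rats 6, 8, 9 and 10. Genomic DNA offers no marker genes, so the labelled tissue could not be checked against the data.

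In mammalian DNA, methyl groups sit mainly on cytosines followed by guanine (CpG sites). These sites are clustered at many promoters and are sparse over gene-poor, AT-rich stretches of the genome. Capture with a methyl-CpG-binding protein retains fragments according to how many methylated CpG sites they carry, so that a tag count stands for captured methylated DNA relative to the rest of the library and not for the methylation of single cytosines. In a tissue of several cell types, a change in the number of cells of one type and a change in methylation per cell cannot be told apart.

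The table was built by the authors from regions in which any pair of libraries differed. A stretch with few regions can therefore hold little captured DNA or little difference between libraries, and these cannot be told apart from positions alone. Coordinates are those of the table, on the rat genome RN4 that the study's methods name. Lengths are end minus start, and whether starts are counted from 0 is not given in the sources used here.

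Isolated regions were mostly near the limit of the rule. Of the 11484 regions, 4683 had 5 other regions within 50 kb, 3194 had 4, 1993 had 3, 1021 had 2, 434 had 1 and 159 had none. The median distance between midpoints of an isolated region and the nearest other region was 7.51 kb (quartiles 2.91 and 15.5 kb, longest 319 kb), against 1.30 kb over all autosomal regions. Their median length of 441 bp (range 161 to 1989 bp) was equal to that of the 132543 regions of the same length class with 6 to 20 others within 50 kb. It was below the 455 bp of the 261904 regions with 21 to 40 others and the 489 bp of the 163605 regions with more than 40. Captured tags per unit of length were nearly level, at a median of 18.7 tags per kb and library in isolated regions and 19.1 over all autosomal regions.

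Isolated regions lay on each of the 20 autosomes but not evenly. Chromosome 2 held 1792 of them, 3.93% of its regions and 6.94 per Mb, and chromosome 13 held 768, or 3.37% of its regions. Chromosomes 5 and 4 followed with 2.89% and 2.73%. At the other end, isolated regions made up 0.347% of the regions of chromosome 10, 0.522% of chromosome 12 and 0.574% of chromosome 19. Chromosome 2 also had the fewest regions of any kind per Mb, 176, and chromosome 12 the most, 373. By position along the chromosome, 5.84% of isolated regions lay in the first 5 Mb spanned by the table, against 3.21% of all autosomal regions, and 3.72% in the last 5 Mb, against 4.65%. For 174 isolated regions, the midpoint of an adjacent region lay 200 kb or more from their own. The longest autosomal stretch without any region, of 790.0 kb from edge to edge on chromosome 7, had an isolated region at its left edge.

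**Figure D1:**
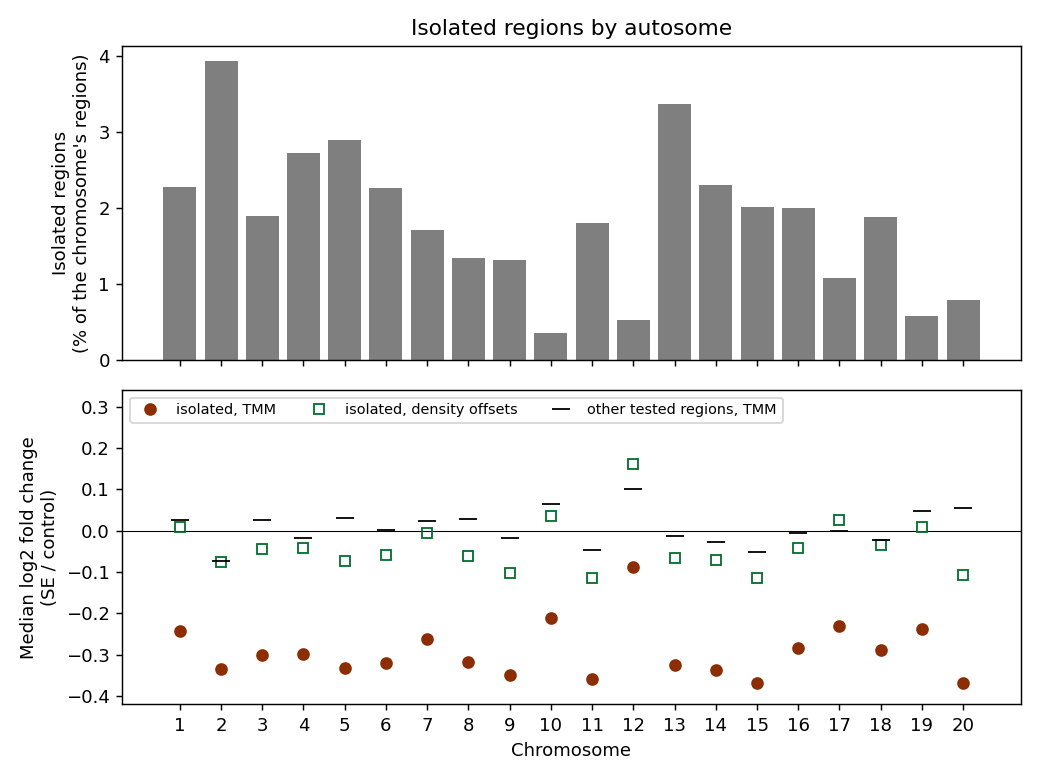
Upper panel: isolated regions as a percentage of all regions of each autosome, from 0.347% on chromosome 10 to 3.93% on chromosome 2. Lower panel: median log2 fold change (SE over control) per autosome of tested isolated regions with TMM (filled circles) and with density offsets (open squares), and of the other tested regions with TMM (dashes); the circles lie below the dash on each autosome.

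Most isolated regions were neighbors of one another. In the order of the table they formed 2844 uninterrupted runs, of which 717 were single regions and 226 held 10 or more, with 3186 regions in these. The longest run held 40 isolated regions in 858 kb of chromosome 1, at chr1:69567542-70425909. A run of 31 spread over 3280.2 kb of the same chromosome, at chr1:49736567-53016737. Of 2570 windows of 1 Mb with any region, 1157 held an isolated region, and the 490 windows with 10 or more held 8721 of them. The densest was chr2:109000001-110000000, where 39 of 54 regions were isolated. Regions of the same stretch share neighbors and are not independent of one another.

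At the depth of these libraries, single isolated regions were covered thinly. The 8 libraries used had totals between 5499370 and 7179519 tags. Summed over them, an isolated region held a median of 64 tags (quartiles 43 and 87), against 70 over all autosomal regions, and 9.63% of isolated regions had no tag in at least 1 library, against 4.12%. Regions with a sum of at least 70, the median of the table, were tested, which left 4986 isolated regions, or 43.4% of them, against 51.0% of all autosomal regions. The median standard deviation of log2 normalized counts within a group was 0.45 in control and 0.43 in SE rats over tested isolated regions, and 0.36 and 0.35 over regions with more than 40 others within 50 kb. The discarded libraries stood apart in depth or coverage, since SE rat 7 had a total of 14655629 tags and none in 3924 isolated regions, and control rat 2 had 7154696 tags and none in 490.

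A smaller share of each SE library fell in isolated regions. In the control rats, 1.67%, 1.85%, 2.02% and 1.93% of autosomal tags (rats 1, 3, 4 and 5) lay in the 11484 regions. In the SE rats the shares were 1.59%, 1.65%, 1.52% and 1.46% (rats 6, 8, 9 and 10). The groups did not overlap, although control rat 1 at 1.67% and SE rat 8 at 1.65% were nearly level. The control rats averaged 1.87% ± 0.150 and the SE rats 1.56% ± 0.0841 (SD, n = 4 each), a difference of -0.314 percentage points and a ratio of 0.832. Since the regions were chosen with earlier results of these data known, this share is given as a description without a test. The 95% Wilson interval of each share, which covers counting error only, was at most 0.0237 percentage points wide.

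The lower share was present in regions that the count filter kept and in those it removed. Among tested autosomal regions, isolated regions took 1.70% ± 0.139 of the tags in control and 1.40% ± 0.0792 in SE rats (SD, n = 4). Among regions below the filter the shares were 2.28% ± 0.178 and 1.94% ± 0.0955 (SD, n = 4). The groups did not overlap in either case. Of the libraries left out, control rat 2 had 1.55% of its autosomal tags in isolated regions (95% Wilson interval 1.54 to 1.56%), inside the range of the SE rats, and SE rat 7 had 0.896% (0.891 to 0.9%), below every other library.

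**Figure D2:**
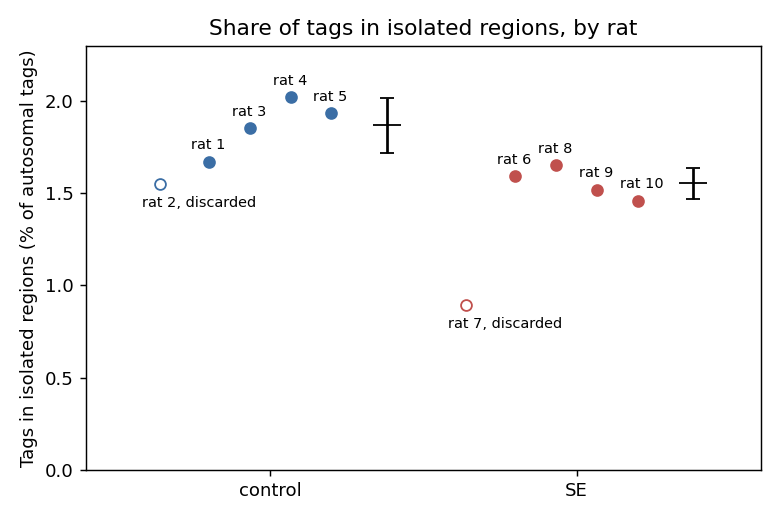
Tags in the 11484 isolated regions as a percentage of the autosomal tags of each library. Filled points are the 8 libraries used, crosses with bars their group mean and SD (1.87 ± 0.150 in control, 1.56 ± 0.0841 in SE rats), and open points the 2 libraries labelled as discarded, at 1.55 and 0.896.

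Isolated regions lay at one end of a trend over the whole table. Regions with 6 to 20 others within 50 kb took 22.0% ± 1.09 of autosomal tags in control and 19.8% ± 0.511 in SE rats, with 1 pair of rats crossing between groups. In contrast, the share of regions with 21 to 40 others was 43.4% ± 0.423 in control and 44.2% ± 0.197 in SE rats, and that of regions with more than 40 others was 28.8% ± 0.960 and 30.7% ± 0.437 (SD, n = 4 each). The density slope of a library is the change of its log2 normalized counts, relative to the mean of the 8 libraries, per log2 unit of the number of other regions within 50 kb plus 1. It was 0.02, -0.06, -0.11 and -0.08 in control rats 1, 3, 4 and 5 and 0.04, 0.02, 0.07 and 0.09 in SE rats 6, 8, 9 and 10. Control rat 1 lay among the SE rats. The difference of the means was 0.11, and an exact two-sided permutation test over the 8 rats gave p = 0.0571, where the smallest p possible is 0.0286. The isolated regions, at one end of this trend, were chosen with earlier results of these data known. This p and those of the slope given below are therefore descriptions. With each rat left out in turn the difference lay between 0.09 and 0.14. The exact permutation p was 0.0286 without control rat 1, the smallest that design allows, 0.0571 without control rat 3, 4 or 5 or SE rat 8, and 0.0857 without SE rat 6, 9 or 10.

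The rats lay in nearly the same order in the isolated regions themselves. These regions entered the density slope at its lowest densities, so this order is not a separate observation. After normalization by the trimmed mean of M-values (TMM), which assumes that most regions do not differ, the median log2 deviation of tested isolated regions from the mean of the 8 libraries was -0.01, 0.11, 0.24 and 0.17 in control rats 1, 3, 4 and 5. In SE rats 6, 8, 9 and 10 it was -0.07, -0.04, -0.14 and -0.20. All SE rats lay below all control rats, with control rat 1 closest to them. When each library was instead given an offset for its own trend on region density and mean count, these medians lay between -0.01 and 0.03 in the 8 rats, and control rat 1 had the highest. Such offsets take out a trend on density by construction.

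**Figure D3:**
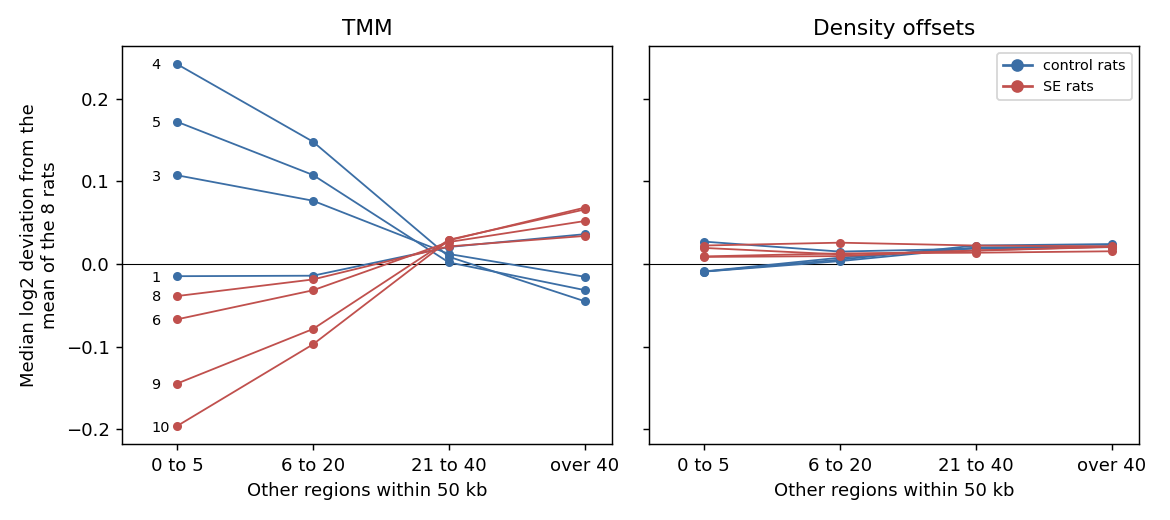
Median log2 deviation of each library from the mean of the 8 libraries, over tested regions in 4 classes of the number of other regions within 50 kb, with TMM (left) and with density offsets (right); each line is 1 rat, numbered at the left. With TMM, isolated regions (0 to 5) range from -0.20 in SE rat 10 to 0.24 in control rat 4, and with offsets the lines lie close together.

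Region by region with TMM, isolated regions were called lower in SE rats far more often than higher. At an unadjusted p below 0.01, the threshold of the study, edgeR's quasi-likelihood test called 297 of the 4986 tested isolated regions lower in SE, or 5.96%, where 1.07% of all tested regions were called lower. It called 4 higher, or 0.0802%, where 0.584% of all tested regions were called higher. Adjusted by the Benjamini-Hochberg method over the 291987 regions tested, 1 isolated region passed 0.05 (0.00616% of all tested regions did). That count was 7 without control rat 1, 1 without control rat 5 and 0 without any one of the other 6 rats. The share of all tested regions that passed was not counted with a rat left out. The median log2 fold change was -0.31 over tested isolated regions and 0.00 over all tested regions, and 77.0% of isolated regions had a negative value. The normalized counts of the groups did not overlap in 298 isolated regions with SE lower, or 5.98% (1.94% of all tested regions), and in 14 with SE higher, or 0.281% (1.69% of all tested regions).

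The filter acted unequally on these regions. Of the tested isolated regions, 22.1% had a summed count of at least 35 in the control libraries but not in the SE libraries, and 5.82% the reverse, whereas among other tested autosomal regions these were 7.79% and 10.9%. The counts of called regions are therefore descriptions of the regions that passed. With no filter, all 11484 isolated regions could be tested, and 439 of them (3.82%) were called lower and 28 (0.244%) higher, where 0.856% and 0.525% of all regions were called. With each rat left out in turn, 179 to 326 isolated regions were called lower, the fewest without SE rat 10 and the most without control rat 1, and 3 to 10 higher. Without SE rat 10 the share called lower was 3.41%, where 0.788% of all tested regions were called lower. With DESeq2 in place of edgeR 106 (2.13%) were called lower, where 0.349% of all tested regions were, and with the discarded libraries included 36 of 3468 (1.04%, against 0.215%). These differences are relative to the table: with TMM factors taken from the isolated regions alone, 42 (0.842%) were called lower and 36 (0.722%) higher. Over all tested regions, 0.0966% were called lower and 4.38% higher with these factors. The median was -0.01 in isolated regions and 0.30 over all tested regions.

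The share called lower declined with the number of neighbors and had no step at the limit of the rule. It was 6.06% among tested regions with exactly 5 others within 50 kb (126 of 2079) and 4.99% among those with exactly 6 (128 of 2567). It was 2.80% with 6 to 20 others, 0.556% with 21 to 40 and 0.220% with more than 40. The share called higher ran the opposite way, at 0.280%, 0.562% and 0.832% in these classes. Among isolated regions it did not follow the number of others in order: 4 of 59 tested regions without any neighbor were called lower, 7 of 180 with 1, 21 of 433 with 2, 39 of 833 with 3 and 100 of 1402 with 4.

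Offsets for the density trend removed most of these calls. They were fitted on the same 8 libraries and take out any group difference that follows density or mean count, whatever its cause. The cause of the calls with TMM was not tested. With the offsets, the same test called 68 isolated regions lower in SE, or 1.36% (0.682% of all tested regions), and 31 higher, or 0.622% (0.553% of all tested regions). None passed 0.05 after Benjamini-Hochberg adjustment of edgeR's quasi-likelihood p (0.00993% of all tested regions did), while at an unadjusted p below 0.05 there were 253 lower, or 5.07% (3.06% of all tested regions), and 171 higher, or 3.43% (2.78% of all tested regions). The median log2 fold change was -0.05. Groups did not overlap in 97 regions with SE lower, or 1.95% (1.73% of all tested regions), and in 59 with SE higher, or 1.18% (1.56% of all tested regions). The lower calls of this fit were all among those made with TMM: 68 regions were called lower in both fits, 229 with TMM only and none with offsets only. Of the higher calls, 4 were made in both fits and 27 with offsets only. The offsets raised the fold change of every tested isolated region, as given below, so this nesting of calls was largely fixed by them.

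The offsets moved all tested isolated regions in one direction. The TMM fold change was below that with offsets by a median of 0.26 on the log2 scale (range of the difference -0.38 to -0.21), and 1098 regions changed sign. The fitted median of -0.05 and the median deviations of the libraries differ in sign, since the latter averaged 0.01 higher in SE than in control rats. These offsets were taken from log2 values with a prior count of 2, which draws low counts together. With a prior count of 0.5, chosen after the data were seen, 57 isolated regions (1.14%) were called lower and 46 (0.923%) higher. Over all tested regions these shares were 0.662% and 0.566%. The median of isolated regions was -0.02.

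**Figure D4:**
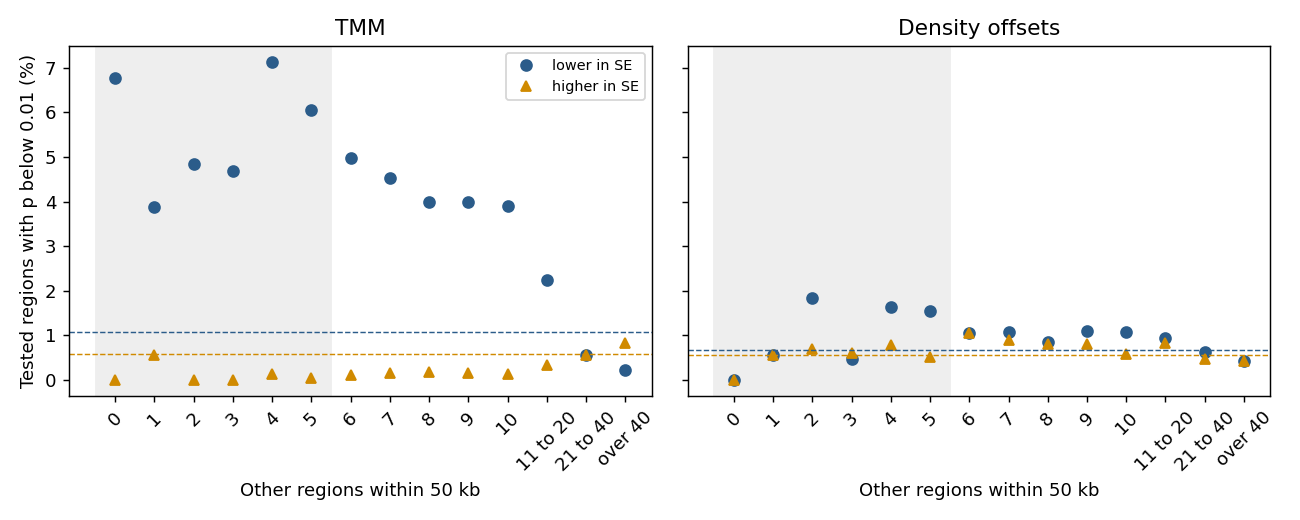
Percentage of tested regions with p below 0.01, lower (circles) or higher (triangles) in SE, by the number of other regions within 50 kb, with TMM (left) and with density offsets (right). The shaded part is the isolated regions and dashed lines are the shares over all tested regions, 1.07% lower and 0.584% higher with TMM, and 0.682% and 0.553% with offsets.

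Chromosomes and kinds of isolated region were alike in direction with TMM. The median log2 fold change was negative on all 20 autosomes, from -0.37 on chromosome 20 to -0.09 on chromosome 12, and was below that of the other tested regions of the same chromosome on all 20. Chromosome 12 had 31 tested isolated regions and chromosome 2 had 787, of which 56 (7.12%) were called lower and 2 higher. Among the other tested regions of chromosome 2, 1.58% were called lower. With offsets the median was negative on 15 autosomes, from -0.12 on chromosome 15 to 0.16 on chromosome 12. Among isolated regions, calls were more frequent in longer ones. Shares of all tested regions by length, distance to a chromosome end or distance to an adjacent region were not computed. With TMM 3.21% of the 1247 shortest tested isolated regions (198 to 457 bp) and 8.50% of the 1247 longest (623 to 1989 bp) were called lower, with medians of -0.25 and -0.30, and with offsets 0.401% and 2.17%. By contrast, the share called lower with TMM was 5.66% within 5 Mb of a chromosome end and 5.99% elsewhere. It was 6.17% in runs of 10 or more isolated regions, 5.81% in runs of 2 to 9 and 6.60% among single ones. Where the midpoint of an adjacent region lay 200 kb or more away, 2 of 73 were called lower (2.74%).

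In the 10 longest runs, 98 of 305 isolated regions were tested, and 4 (4.08%) were called lower with TMM, against 5.96% of all tested isolated regions. Of the 40 regions in chr1:69567542-70425909, 13 were tested, with a TMM median of -0.28 and 1 called lower, and with offsets 1 was called lower and 1 higher. In chr1:49736567-53016737, where regions are widely spaced, 14 were tested, none was called in either fit, and the medians were -0.07 with TMM and 0.18 with offsets. The run of 30 at chr1:805726-2054254 had 14 tested regions and no call in either fit. Its medians were above zero, at 0.04 with TMM and 0.28 with offsets. In chr2:207210980-208007636, 13 of 31 were tested, 2 were called lower with TMM and none with offsets, and the medians were -0.52 and -0.25. The runs of 34 on chromosome 17 and of 32 on chromosome 12 had 4 and 6 tested regions and no call in either fit.

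The region that passed the adjusted threshold was chr9:49341284-49341919, of 635 bp, with 5 others within 50 kb and the nearest at 14.7 kb. It lies in a 1 Mb window of chromosome 9 in which 36 of 57 regions were isolated. Control rats 1, 3, 4 and 5 had 10, 15, 19 and 27 tags and SE rats 6, 8, 9 and 10 had 4, 5, 4 and 5. Every SE rat was below every control rat, and the SE rats lay close together. Normalized counts (CPM with TMM factors) were 4.16 ± 1.40 in control and 1.01 ± 0.127 in SE rats (SD, n = 4). The log2 fold change was -2.02 (standard error 0.40), with a p of 0.0373 from edgeR's quasi-likelihood test after Benjamini-Hochberg adjustment. With offsets it was -1.76 (standard error 0.40) with an adjusted p = 0.154 in the same test. Over the alternatives with TMM the fold change ranged from -2.20 to -1.72 and the adjusted p from edgeR with Benjamini-Hochberg adjustment from 0.00553 to 0.575, the lowest without control rat 1 and the highest without control rat 5. Leaving out any rat other than control rat 1 took the adjusted p above 0.05. The region held 71 tags in the control libraries and 18 in the SE libraries, so it reached the filter of 70 through the control group, and without the filter the edgeR p after Benjamini-Hochberg adjustment was 0.0608. The discarded libraries had 6 tags in control rat 2 and 2 in SE rat 7.

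Other regions lower in SE and named for a small p with TMM also passed the filter mainly through the control group. An exception was 1 with high counts. At chr3:85098988-85099466, with 4 others within 50 kb, control rats 1, 3, 4 and 5 had 10, 12, 14 and 21 tags and SE rats 6, 8, 9 and 10 had 2, 2, 5 and 4. The groups did not overlap, and the log2 fold change of -2.16 (standard error 0.44; unadjusted p = 4.21e-06) was the most negative of all tested isolated regions with TMM. Its sums were 57 tags in control and 13 in SE rats, exactly at the filter of 70, so a region with fewer control tags would not have been tested. With offsets it was -1.92 (standard error 0.44; unadjusted p = 3.65e-05). At chr5:86046903-86047485 the control rats had 14, 20, 20 and 19 tags and the SE rats 7, 5, 9 and 4, again without overlap, with a log2 fold change of -1.60 (standard error 0.37) with TMM and -1.34 (standard error 0.37) with offsets. At chr18:10248573-10249131 they had 17, 16, 23 and 12 against 9, 3, 5 and 6. There the fold change was -1.64 with TMM and -1.36 with offsets, where control rat 5 at a normalized count of 2.21 and SE rat 6 at 2.22 just overlapped. Control rat 2 and SE rat 7, both discarded, had 13 and 0 tags at chr3:85098988-85099466. They had 2 and 1 at chr5:86046903-86047485 and 14 and 0 at chr18:10248573-10249131.

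A pair of regions was named for the offset fit alone. At chr6:69753926-69754784 control rats 1, 3, 4 and 5 had 11, 25, 14 and 36 tags and SE rats 6, 8, 9 and 10 had 9, 9, 10 and 5. The control rats spread widely here, and rat 1 was close to the SE rats. The log2 fold change was -1.42 (standard error 0.34) with TMM and -1.18 (standard error 0.34) with offsets. At chr2:130582124-130582839 the counts were 22, 19, 25 and 39 in control and 15, 14, 8 and 9 in SE rats, with a log2 fold change of -1.25 (standard error 0.29) and -1.004 (standard error 0.29). Without control rat 5 both offset calls were lost, at -0.91 (unadjusted p = 0.0203) and -0.85 (unadjusted p = 0.0107). The discarded control rat 2 had 8 tags at chr6:69753926-69754784 and 25 at chr2:130582124-130582839, and SE rat 7 had none in either. SE rat 7 had no tag in 3924 isolated regions, so its zeros are not particular to these regions.

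Few isolated regions were called higher in SE with TMM. Only chr13:110323560-110324059, with 1 other region within 50 kb, was called higher with TMM without overlap between groups. Its counts were 8, 5, 6 and 8 in control rats 1, 3, 4 and 5. In SE rats 6, 8, 9 and 10 they were 12, 20, 15 and 12, and all SE rats lay above all control rats. The sums were 27 tags in control and 59 in SE rats, so this region reached the count filter mainly through the SE group. The log2 fold change was 1.05 (standard error 0.38; unadjusted p = 0.00721) with TMM and 1.31 (standard error 0.38; unadjusted p = 0.000775) with offsets. The TMM call was lost without control rat 3, 4 or 5 or SE rat 8 or 9, with values of 0.83 to 1.07. Here the discarded control rat 2 had 6 tags and SE rat 7 had 1. The other regions called higher with TMM were chr2:169653327-169653982, chr2:169614822-169615340 and chr3:70801370-70802928, of which the last pair is named here after its values were seen. Those on chromosome 2 lie 38.6 kb apart and are counted as neighbors of each other. Their control rats had 10, 8, 5 and 6 tags and 3, 8, 10 and 4 tags, and their SE rats 12, 27, 10 and 15 tags and 12, 19, 8 and 19 tags. The log2 fold changes with TMM were 1.05 (standard error 0.38) and 1.10 (standard error 0.40), with overlap between groups in both. Both regions also reached the filter mainly through the SE group. At chr2:169653327-169653982 the sums were 29 tags in control and 64 in SE rats. There the discarded control rat 2 had 19 tags and SE rat 7 had 1. The call of chr2:169653327-169653982 was lost without control rat 4 (0.94) or 5 (0.91) and without SE rat 8, where the value fell to 0.64 (unadjusted p = 0.123). With offsets its value was 1.29, and 0.91 without SE rat 8 (unadjusted p = 0.0298). At chr3:70801370-70802928 the control rats had 41, 27, 16 and 38 tags and the SE rats 32, 58, 44 and 60, and the log2 fold change was 0.59 (standard error 0.22).

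Further regions were called higher with offsets only. At chr1:217376095-217377208 control rats 1, 3, 4 and 5 had 12, 15, 17 and 19 tags and SE rats 6, 8, 9 and 10 had 23, 21, 18 and 49. SE rat 10 lay far above the other SE rats, and the log2 fold change was 0.97 (standard error 0.27) with offsets and 0.71 (standard error 0.27) with TMM. Without SE rat 10 these values were 0.62 (unadjusted p = 0.0445) and 0.40 (unadjusted p = 0.197), and the call was lost. At chr1:70184455-70185051, which lies inside the longest run, the counts were 10, 11, 9 and 6 against 13, 13, 18 and 27, without overlap in either fit, and the log2 fold changes were 1.12 (standard error 0.34) and 0.87 (standard error 0.34). At chr15:20077646-20078211 they were 7, 9, 7 and 7 against 9, 16, 22 and 14, with log2 fold changes of 1.20 and 0.94 (standard error 0.37 each). Sums in control and SE rats were 36 and 71 tags at chr1:70184455-70185051 and 30 and 61 at chr15:20077646-20078211. Both of these regions reached the filter mainly through the SE group. Control rat 2 and SE rat 7, both discarded, had 8 and 5 tags at chr1:70184455-70185051 and 16 and 3 at chr15:20077646-20078211. At chr1:217376095-217377208 they had 16 and 41. The offset call at chr1:70184455-70185051 was lost without control rat 5 (0.88) or SE rat 10 (0.91), and that at chr15:20077646-20078211 without SE rat 9 (0.92). None of these passed 0.05 in either fit after Benjamini-Hochberg adjustment of the edgeR p.

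The isolated regions with the highest counts had the smallest standard errors among the named regions and moved between the fits. At chr13:30743850-30744783, with 1 other region within 50 kb, control rats 1, 3, 4 and 5 had 557, 544, 586 and 797 tags and SE rats 6, 8, 9 and 10 had 476, 454, 432 and 524. Normalized counts were 146 ± 14.7 in control and 106 ± 4.59 in SE rats (SD, n = 4) and did not overlap. The log2 fold change was -0.47 (standard error 0.10; unadjusted p = 2.22e-05) with TMM and -0.09 (standard error 0.09; unadjusted p = 0.338) with offsets. At chr5:81612789-81613811, with 3 others, the counts were 495, 523, 555 and 753 against 410, 445, 460 and 465, and the log2 fold changes were -0.45 (standard error 0.11) and -0.08 (standard error 0.09). Both regions were called lower with TMM and neither was called with offsets. The opposite held at chr1:63766000-63766694, where the counts of 174, 225, 228 and 200 in control and 172, 231, 263 and 294 in SE rats gave 0.12 (standard error 0.13) with TMM and 0.44 (standard error 0.12; unadjusted p = 0.000501) with offsets, or 0.34 (unadjusted p = 0.0133) without SE rat 9. In the discarded SE rat 7 the first 2 of these regions had 2068 and 2648 tags, and in control rat 2 they had 280 and 258.

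The tested regions farthest from any other gave no common direction. At chr1:52325359-52325754, with 319 kb to the nearest region, control rats 1, 3, 4 and 5 had 8, 11, 15 and 17 tags and SE rats 6, 8, 9 and 10 had 21, 13, 15 and 15. The groups overlapped, and the log2 fold change was 0.25 (standard error 0.32) with TMM. At chr4:98841670-98842397, 155 kb from the nearest region, the counts were 24, 19, 23 and 22 against 14, 15, 13 and 20, and the log2 fold change of -0.59 (standard error 0.28; unadjusted p = 0.0367) was not called. At chr20:2424017-2424465, 152 kb from the nearest region, they were 13, 10, 17 and 18 against 9, 8, 4 and 9. This region was called lower with TMM, at -1.02 (standard error 0.37; unadjusted p = 0.00729), and not with offsets, at -0.76 (standard error 0.37; unadjusted p = 0.0429). The TMM call was lost without control rat 4 or 5 or SE rat 9 or 10, with values of -1.03 to -0.84. The sums at chr20:2424017-2424465 were 58 tags in control and 30 in SE rats, so the region reached the filter mainly through the control group. There the discarded control rat 2 had 18 tags and SE rat 7 had 2.

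**Figure D5:**
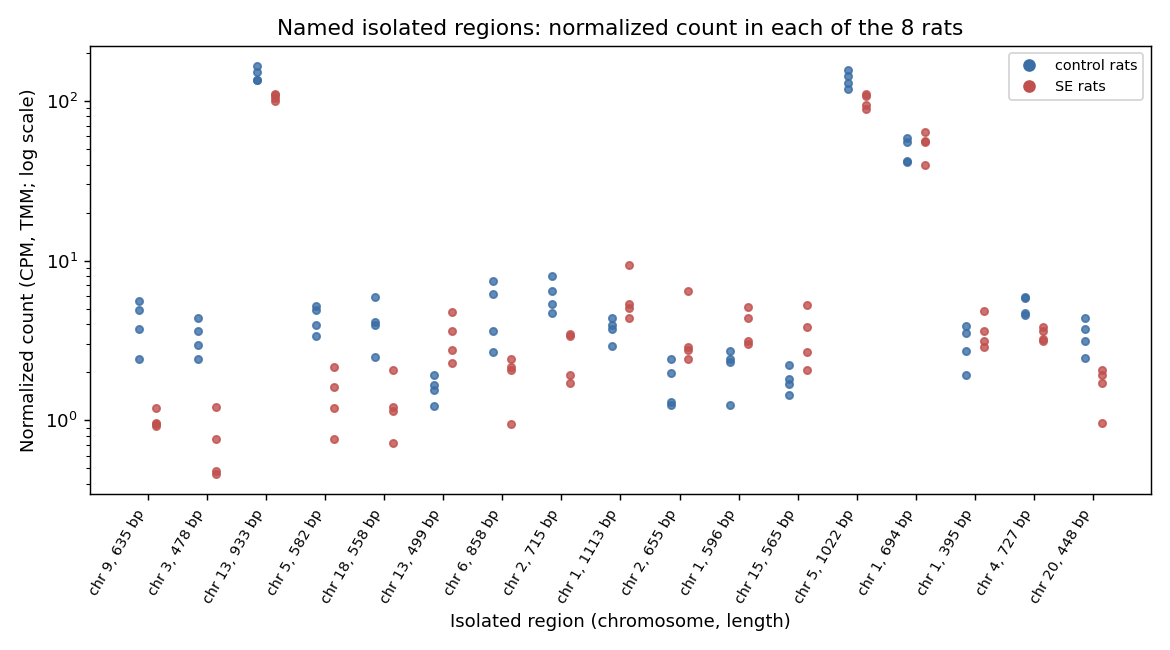
Normalized count (CPM with TMM factors, log scale) of each of the 8 rats in the 17 isolated regions named by the rule, given by chromosome and length; blue points are control and red points SE rats. The leftmost region, of 635 bp on chromosome 9, has control rats at 4.16 ± 1.40 and SE rats at 1.01 ± 0.127 (SD, n = 4).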

How the data were processed

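Methylated hippocampal DNA of 10 rats was sequenced, and 8 libraries were compared. The deposited values are raw tag counts per region: the authors aligned tags to RN4 (BWA), called differences between libraries pair by pair (MACS), merged the called regions (BEDTools), removed duplicate tags and counted the rest without normalization. Whether the 2 discarded libraries helped to define regions is not given in the sources used here. Since a region entered the table by differing between libraries, the table is no even sample of the genome. Every column was assigned to a rat by its label, and no pair of libraries agreed within sampling noise.

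Regions with a summed count below the 50th percentile (70) were removed. The remaining 291987 regions entered edgeR's quasi-likelihood test (glmQLFTest, edgeR 4.0.16 in R 4.3.3; two-sided, condition only, TMM), at an unadjusted p below 0.01, as in the study's methods, and at a Benjamini-Hochberg adjusted p below 0.05 over all tested regions. A standard error is the log2 fold change over the root of the F statistic. For density offsets, log2 CPM (prior count 2) of each library, less the mean of the 8, was fitted on natural splines (4 df) of log2(density + 1) and of mean log2 CPM, and added to the log library size. Density is the number of other regions within 50 kb. The script was tested on simulated data.

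Totals of 5499370 to 7179519 tags left a median of 11.4 counts per library in a tested isolated region, so counting error is a large part of single-region spread. Rats were taken as replicates.

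Named were isolated regions with an adjusted p below 0.05; in each fit, the 5 with the smallest p per direction among those with p below 0.01 and no overlap between groups; the 3 with the highest mean count; and the 3 farthest from any other region. The members and lists were chosen with earlier results of these data known. Alternatives were DESeq2 (version 1.42.0), edgeR's exact test, other scalings, filters, offsets and definitions, all 10 libraries and each rat left out. Sequences and gene context need an RN4 genome and were not analysed here.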

Additional observations from a re-analysis of the deposited data

Results flagged for a closer look

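In 50 groups of 4 rats examined, over library measures and named regions, 1 rat lay apart from the other 3 of its group in 4 cases, where chance gives about 1 in 20 groups. SE rat 10 had the highest total, 7179519 tags, while the other SE rats lay between 5785523 and 5944187. With density offsets, the median log2 deviation of isolated regions was 0.0272 in control rat 1 and -0.01 in the other control rats. The normalized count (CPM with TMM factors) of chr9:49341284-49341919 was 1.20 in SE rat 8, just above the 0.925 to 0.966 of the other SE rats. That of chr2:169653327-169653982 was 6.48 in SE rat 8, against 2.41 to 2.87 in the other SE rats, where control rats had 1.73 ± 0.567 (SD, n = 4).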

How the results depend on the processing

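No paired analysis was possible because no rat number occurs in both groups. Within the 21 alternatives with TMM, the count of 297 isolated regions called lower changed to fewer in the following settings. DESeq2's Wald test called 106 lower and 0 higher at p below 0.01, where 0.349% and 0.139% of all were called. At p below 0.05 it called 13 higher, and the share of all was not counted there. With all 10 libraries 36 were called lower and 1 higher (0.0288%, against 0.282% of all). With at least 10 counts in every library 54 of 717 tested were called lower and 1 higher. These were 7.53%, a higher share, and 0.139%, against 1.39% and 0.618% of all. In that setting 6 isolated regions passed the adjusted threshold, and the share of all that did was not counted. With TMM factors from isolated regions alone 42 were called lower and 36 higher. The last scaling moved the median over all tested regions to 0.30 and that of isolated regions to -0.0106. It called 0.0966% of all tested regions lower and 4.38% higher. With all 10 libraries the median was -0.50, and 1.04% of isolated regions were called lower, against 0.215% of all. By definition of the set, 1013 of 21909 (4.62%) were called lower and 29 higher (0.132%) with 10 or fewer others. With 2 or fewer these were 32 of 672 (4.76%) and 1 (0.149%). With 5 or fewer within 100 kb they were 14 of 313 (4.47%) and 0. Of all tested regions, 1.07% were called lower and 0.584% higher. At p below 0.05 the set within 100 kb had 39 lower and 2 higher, and the share of all was not counted there. Without a filter 28 were called higher (0.244%, against 0.525% of all), and with upper-quartile factors 7 (0.140%, against 0.673% of all). Leaving out each rat gave 179 to 326 lower, 3 to 10 higher and medians of -0.36 to -0.26. The shares were 3.41% to 6.56% lower and 0.0609% to 0.198% higher, against 0.788% to 1.32% and 0.508% to 0.684% of all.

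With offsets, the calls lower and higher were 146 and 70 without a filter (median -0.0835), 9 and 14 with all 10 libraries (-0.13), 11 and 4 with at least 10 counts in every library (-0.0315), 243 and 168 with 10 or fewer others (1.11% and 0.767%), 9 and 4 with 2 or fewer (1.34% and 0.595%; -0.0229) and 3 and 2 within 100 kb (0.958% and 0.639%; 0.0157). Without a filter these were 1.27% and 0.610% of isolated regions, against 0.602% and 0.492% of all. With all 10 libraries they were 0.260% and 0.404%, against 0.156% and 0.289% of all. With at least 10 counts they were 1.53% and 0.558%, against 0.890% and 0.652% of all. For the other sets, the shares of all were 0.682% and 0.553%. A linear trend gave 49 higher (0.983%, against 0.549% of all), with a median of -0.00438. A prior count of 0.5, added after the data were seen, gave a median of -0.0171. Leaving out each rat gave 47 to 69 lower, 31 to 49 higher (most without SE rat 6) and medians of -0.0623 to -0.0345 (the latter without control rat 5). The shares were 0.977% to 1.39% lower and 0.637% to 0.972% higher, against 0.558% to 0.773% and 0.471% to 0.616% of all. The SE minus control difference in the share of tags was -1.23 percentage points with 10 or fewer others, -0.0447 with 2 or fewer and -0.0199 within 100 kb, and -0.380 to -0.263 with each rat left out. The sets with 10 or fewer, 2 or fewer and within 100 kb differ in size, with 21909, 672 and 313 tested regions. Their median log2 fold changes with TMM were -0.28, -0.29 and -0.24. The difference in density slope was 0.0981 without a filter (exact permutation p = 0.0286), 0.198 with all 10 libraries (exact permutation p = 0.0317) and 0.0938 to 0.139 with each rat left out (exact permutation p from 0.0286 to 0.0857). The exact permutation p was 0.0571 with a prior count of 0.5, with at least 10 counts in every library and within 100 kb. With all 10 libraries, chr5:81612789-81613811 reversed to 0.0705 with TMM and to 1.76 with offsets, and with offsets chr13:30743850-30744783 to 1.57 and chr4:98841670-98842397 to 0.67. In that fit the normalized counts of SE rat 7 were 260 at chr5:81612789-81613811 and 203 at chr13:30743850-30744783. Those of control rat 2 were 50.5 and 54.8. The cause of these and the other changes was not tested, and the settings also differ in the regions and libraries that entered. Of the named regions, no other fold change reversed under any alternative run.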
